A study of Mus musculus with 2 samples.

Results

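The paralogous clusters of miR-193 and miR-365 hairpins in the mouse hold 4 miRNA genes, Mir193a, Mir193b, Mir365-1 and Mir365-2, which were taken by GENCODE M21 gene name from the 2202 miRNA genes of the deposited counts, and all 4 were found. Small RNA shorter than 30 nt was sequenced from hippocampal tissue, which the labels call a layer without naming it. The donors were B6CASTF1/J females, 18 to 20 months old. These mice are first-generation hybrids of a B6 and a CAST parent. The 2 libraries are biological replicates 1 and 2 of 1 group, with no treatment, genotype, age or sex contrasted. Their records carry different animal numbers but name 1 donor record, so the spread between the libraries may be partly technical.

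A miRNA is cut from a hairpin precursor as a short duplex, and either strand of it, the 5p or the 3p arm, can be loaded into an Argonaute protein and pair with messenger RNAs through its seed, the bases 2 to 8 from the 5′ end. Hairpins that lie close together on 1 strand can be cut from 1 primary transcript, and hairpins that share a seed share many predicted targets. The miR-193 and miR-365 hairpins are neighbours at both loci. The pair on chromosome 16 is known from brown fat, where it was described as favouring fat over muscle differentiation in culture. miR-193a is known as a growth restraint in blood cells, with the receptor gene Kit among its targets, and miR-193b as one in epithelial tumours, with cyclin D1 among its targets. The clusters were taken as glia-linked, which these libraries cannot check: the cells the counts came from were not measured, and in bulk tissue fewer cells of a type and less RNA per cell cannot be told apart.

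The mature sequences show how the paralogs can be told apart by their reads and where they cannot. They are printed 5′ to 3′ from RefSeq (GRCm38.p6), with the seed in capitals. All 4 genes matched the table and carry 8 arms with 7 different sequences.
miR-193a-3p: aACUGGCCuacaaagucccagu
miR-193b-3p: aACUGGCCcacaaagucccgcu
miR-193a-5p: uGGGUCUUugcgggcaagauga
miR-193b-5p: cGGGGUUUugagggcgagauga
miR-365-1-5p: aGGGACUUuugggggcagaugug
miR-365-2-5p: aGGGACUUucaggggcagcugug
miR-365-3p, from Mir365-1 and Mir365-2: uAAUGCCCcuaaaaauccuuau

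The 3p arms of Mir193a and Mir193b share their seed with each other and with no other of the 1738 mature arms in the table. They match at 19 of 22 positions, and the differences, counted from the 5′ end with the miR-193a base first, are U9C, A20G and G21C. Their 5p arms match at 17 of 22 positions, and 2 of the 5 differences, U5G and C6U, lie in the seed, so that the 5p arms have no seed in common. The longest stretch that both miR-193 hairpins hold without a mismatch is 10 bases. The 5p arms of the miR-365 genes share a seed and match at 20 of 23 positions (U10C, G11A and A19C, with the miR-365-1 base first).

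The miR-365-3p arm is the same in both genes at all 22 positions. Around it the miR-365 hairpins share a stretch of 27 bases, shown in capitals because a read that lies within it fits both genes.
Mir365-1 hairpin: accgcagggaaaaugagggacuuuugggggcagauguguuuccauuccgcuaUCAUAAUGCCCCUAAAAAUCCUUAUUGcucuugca
Mir365-2 hairpin: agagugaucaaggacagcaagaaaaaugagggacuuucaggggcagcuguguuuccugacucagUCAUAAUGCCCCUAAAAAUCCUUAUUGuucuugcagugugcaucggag

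In the files, reads that fit several places are set apart as 1 total per library and belong to no gene. That total was 36.2% of all reads for replicate 1 and 47.9% for replicate 2. Levels given below for Mir365-1 and Mir365-2 may thus be too low. Each mature arm of Mir193a and of Mir193b occurs in 1 hairpin of the table, its own, though the genome as a whole was not searched.

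Both clusters lie outside protein-coding genes, on the plus strand (mm10). Mir193a (ENSMUSG00000065395.1) lies at chromosome 11, 79711969 to 79712034, and Mir365-2 (ENSMUSG00000065489.1) lies 14365 bases after it, at 79726400 to 79726511. No annotated gene overlaps either hairpin. The nearest annotated gene before Mir193a is the noncoding Gm11205, 6548 bases away, and the nearest protein-coding gene is Rab11fip4, an effector of Rab11 in vesicle traffic, 13945 bases before it. Mir193b (ENSMUSG00000076972.2) lies at chromosome 16, 13449523 to 13449601, and Mir365-1 (ENSMUSG00000065449.1) lies 4238 bases after it, at 13453840 to 13453926. Both lie within the span of Gm15738, a noncoding gene on the minus strand, inside introns: 2 of its 5 annotated transcripts run over them, and 0 have an exon there. The nearest protein-coding gene is Mrtfb, a coactivator of serum response factor, 31993 bases before Mir193b. No other annotated miRNA gene lies within 10000 bases of either cluster.

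**Figure D1:**
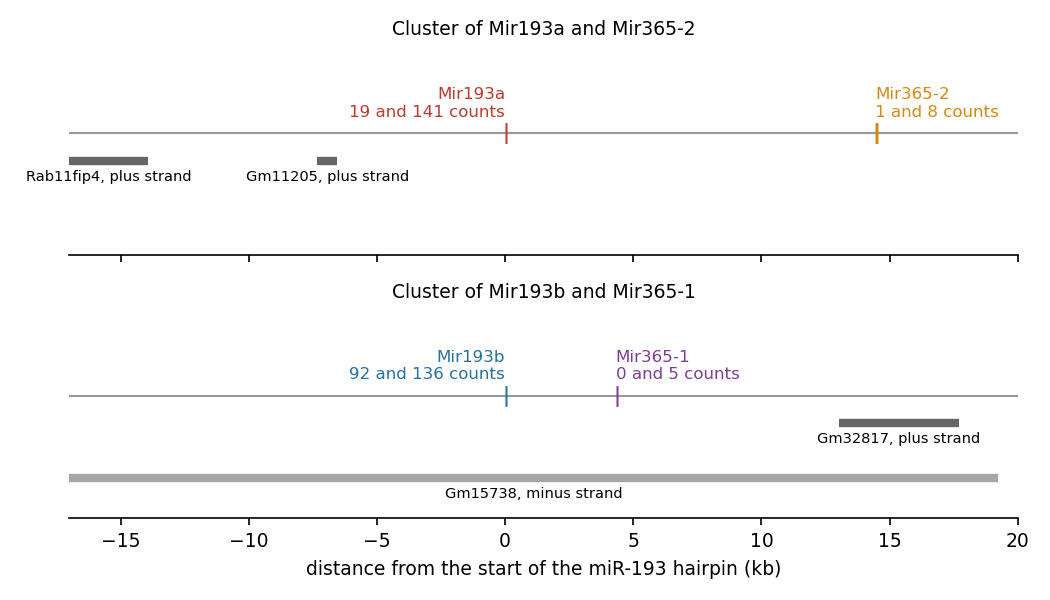
Map of the clusters, to scale, with the distance from the start of each miR-193 hairpin in kb on the x axis, the hairpins as coloured marks with their sense counts in replicate 1 and replicate 2, and annotated genes as grey bars. The miR-365 hairpin follows the miR-193 hairpin after 14365 bases in the upper cluster and after 4238 bases in the lower one, and Gm15738 runs across the lower cluster on the other strand.

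Levels are sense-strand counts scaled to a library sum of 1000000 (CPM). The sums of counts in miRNA genes were 2255838 in replicate 1 and 4521208 in replicate 2, and the value of a single library is given with its exact 95% Poisson interval. These intervals hold counting error alone, because amplified reads are not independent molecules. Where no read was counted, the upper limit (3 counts) is 1.33 CPM in replicate 1 and 0.664 CPM in replicate 2. The mature arms have 22 or 23 nt in all of these genes, so counts were not divided by the hairpin lengths of 66 to 112 nt. Read lengths and positions were not examined, so a count does not say which arm or other part of the hairpin was read. Marker genes were set beside the tissue label, but with no reference tissue to compare, their levels do not test it. The neuronal list held 9.57% ± 1.65 (SD, n = 2) of the counts, although the copies of Mir124a stood at 0.664 to 1.88 CPM. How many reads of these Mir124a copies were set apart as multimapping was not tested. The endothelial gene Mir126a held 2.55% of the counts and the oligodendrocyte list 0.611%, as means over both libraries. The microglia and leukocyte list held 0.0938% and the choroid plexus list 0.0918%. The liver gene Mir122 stood at 28.9 CPM. Of 6 muscle genes, Mir206 stood at 15.1 and 26.3 CPM, a mean of 20.7 CPM that is close to that of Mir193a, and 5 had no count, among them copies of Mir1a and Mir133a whose reads can be set apart as multimapping. The libraries differed from each other far beyond counting error, with a chi-square over its degrees of freedom of 386 across the 734 genes with a count.

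All 4 genes had few counts in this tissue, and nearly all of these counts came from the miR-193 hairpins. For the miR-365 genes, reads within the shared stretch can be missing from the counts. Together the 4 genes held 402 counts, 112 in replicate 1 and 290 in replicate 2, which is 0.00569% ± 0.00102 (SD, n = 2) of all counts. Mir193b and Mir193a supplied 228 and 160 of these, against 9 from Mir365-2 and 5 from Mir365-1. Of the 4 genes, 2 reached 1 CPM in both libraries, namely Mir193a and Mir193b.

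Mir193b was the highest of the 4 by mean level. Its 92 counts in replicate 1 make 40.8 CPM (32.9 to 50.02) and its 136 counts in replicate 2 make 30.1 CPM (25.2 to 35.6), for a mean of 35.4 ± 7.57 CPM (SD, n = 2). By mean level it ranked 251 of 2202 genes. Both libraries placed it close to the same rank, 248 in replicate 1 and 254 in replicate 2.

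Mir193a followed, with a wide gap between the libraries. Replicate 1 gave 19 counts, or 8.42 CPM (5.07 to 13.2), whereas replicate 2 gave 141, or 31.2 CPM (26.3 to 36.8), for a mean of 19.8 ± 16.1 CPM. Its rank was 325 in replicate 1 and 253 in replicate 2. In replicate 2 it stood slightly above Mir193b with overlapping intervals, and in replicate 1 below it with intervals that do not overlap, so the order of the miR-193 genes by mean level rests on replicate 1.

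The counts of the miR-365 genes lay at the detection limit. Replicate 1 held 1 count of Mir365-2, or 0.443 CPM (0.0112 to 2.47), and replicate 2 held 8, or 1.77 CPM (0.764 to 3.49). Of Mir365-1, replicate 1 held 0 counts, for which the limit of 3 counts is 1.33 CPM and the exact interval ends at 1.64 CPM. Replicate 2 held 5 counts of Mir365-1, or 1.11 CPM (0.359 to 2.58). Their means were 1.11 ± 0.938 CPM and 0.553 ± 0.782 CPM. The order by mean level was Mir193b, Mir193a, Mir365-2 and Mir365-1. Mir193b and Mir193a overlapped between libraries, as did Mir365-2 and Mir365-1, whereas the lowest Mir193a value lay above the highest Mir365-2 value. None of the 4 genes had an antisense count, and their counts without regard to strand were the same as on the sense strand.

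**Figure D2:**
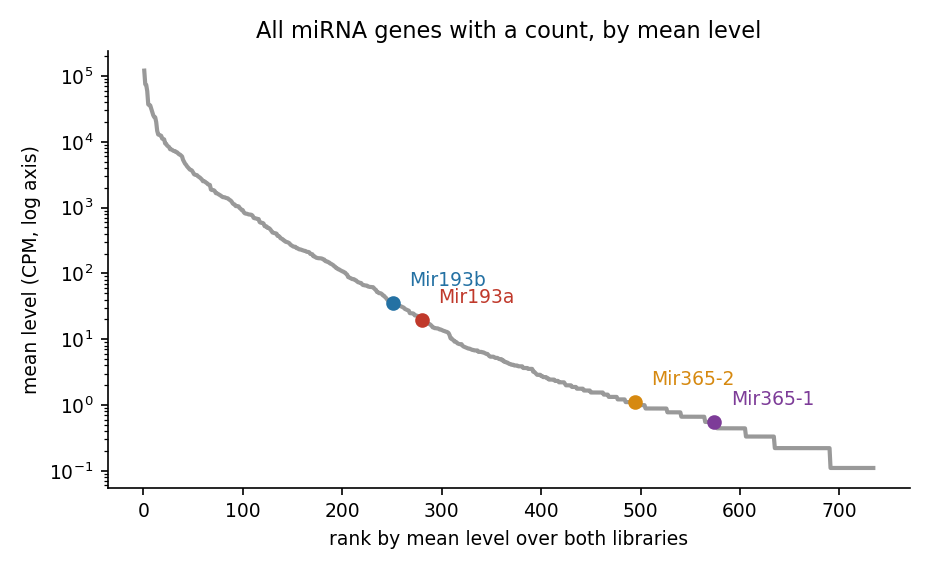
Mean level over both libraries (CPM, log axis) against rank for the 734 genes with a count, as a grey line, with the 4 genes as coloured points. Mir193b and Mir193a sit at ranks 251 and 280, and Mir365-2 and Mir365-1 at ranks 494 and 574, where the line falls in the steps of single counts.

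**Figure D3:**
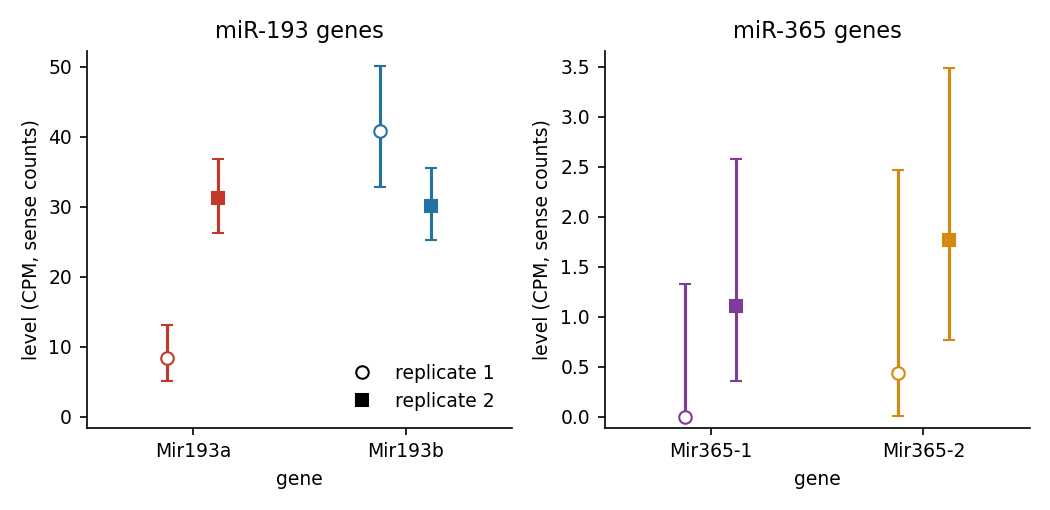
Level (CPM, linear axis) of each gene in replicate 1 (open circles) and replicate 2 (filled squares), with exact 95% Poisson intervals as bars (for the count of 0, the bar ends at the limit of 1.33 CPM); the axes of the panels differ. Mir193a is at 8.42 and 31.2 CPM with intervals that do not overlap, Mir193b is at 40.8 and 30.1 CPM, and the miR-365 genes are at 1.77 CPM or less.

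Of the 4 genes, Mir193a was the one called different between the libraries. It was 3.70-fold higher in replicate 2 (95% interval 2.29 to 6.33, counting error only), a log2 ratio of 1.86 with a pseudocount of 0.5 counts. The exact binomial test, which compares the reads of these 2 libraries and not conditions, gave an adjusted p of 2.36e-09 (Benjamini-Hochberg over the 495 genes at or above 1 CPM on average). By that test and a minimum of 2-fold, 17.6% of all genes tested were called, 3.84% higher and 13.7% lower in replicate 2. Of the 3 members tested, 1 was called, so a call in itself does not set the clusters apart from other genes. In edgeR's exactTest, whose error includes the spread between both libraries, Mir193a lost its call, with an unadjusted p of 0.0313 and an adjusted p of 0.774, and 3 of the 495 genes, 0.606%, were called at all. Only 4 of the 495 genes had a larger log2 ratio than Mir193a.

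Mir193b and Mir365-2 were not called. Mir193b was lower in replicate 2 by a ratio of 0.738 (0.562 to 0.972), a log2 ratio of -0.44, with an adjusted p of 0.0538 in the exact binomial test. Mir365-2 had a ratio of 3.99 with an interval of 0.535 to 177, which spans both directions, from 9 counts, and an adjusted p of 0.399 in that test. Mir365-1, with a mean under 1 CPM, was not tested, and no ratio is given because both of its levels were under the limit that a count of 0 allows in replicate 1. Across all genes tested the median log2 ratio was -0.19, and edgeR's TMM factors moved it to -0.07 and DESeq2 size factors to 0.0026. With those factors the log2 ratio was 1.98 for Mir193a and -0.32 for Mir193b, and with DESeq2 size factors 2.05 and -0.25, so the signs held under each scaling. The split of calls over all genes was 19 higher and 68 lower with library sums, 26 and 51 with TMM, and 27 and 48 with DESeq2 size factors.

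**Figure D4:**
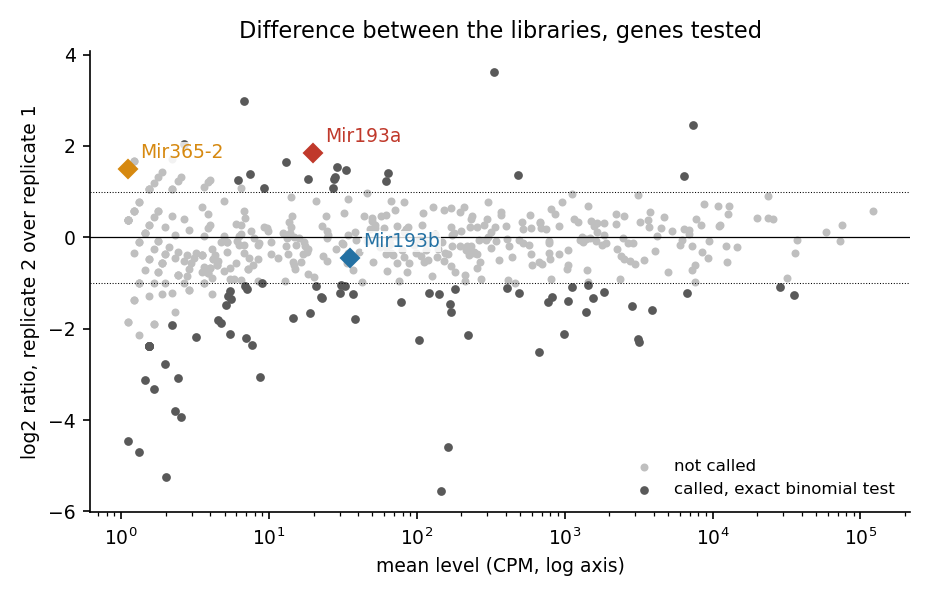
Log2 ratio of replicate 2 over replicate 1 against mean level (CPM, log axis) for the 495 genes tested, with genes called by the exact binomial test in dark grey, and dotted lines at 2-fold. Mir193a lies at 1.86, near the upper edge of the cloud, Mir193b at -0.44 within it, and Mir365-2 at 1.50 among genes of few counts that were not called.

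The balance of the miR-193 paralogs differed between the libraries more than their sum did. In replicate 1, Mir193a gave 19 of 111 miR-193 counts, or 17.1% (exact binomial interval 10.6 to 25.4). In replicate 2 it gave 141 of 277, or 50.9% (44.9 to 56.9). The odds of a miR-193 count belonging to Mir193a were 5.00-fold higher in replicate 2 (exact interval 2.84 to 9.17, counting error only), a quantity that does not depend on the scaling of the libraries. The sum of both genes, whose 3p arms share the seed, was 49.2 CPM (40.5 to 59.3) in replicate 1 and 61.3 CPM (54.3 to 68.9) in replicate 2. This sum was 1.25-fold higher in replicate 2 (0.996 to 1.57), an interval that reaches below 1, and its mean was 55.2 ± 8.53 CPM (SD, n = 2).

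Few seed-sharing pairs moved apart by more. Among 190 pairs of hairpins that share a seed in the RefSeq table and had at least 10 counts in each library, the median absolute difference of the log2 ratios was 0.46, and for Mir193a and Mir193b it was 2.30. A larger difference was found in 8 of the 190 pairs. Many of these pairs share a gene (139 genes in all), so they are not independent, and the place of the miR-193 pair among them is a description of these libraries. In mean level the miR-193 genes were closer than most such pairs, 0.84 log2 units apart against a median of 2.61. That mean joins unlike libraries: the log2 ratio of Mir193a over Mir193b was -2.25 in replicate 1 and 0.052 in replicate 2.

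**Figure D5:**
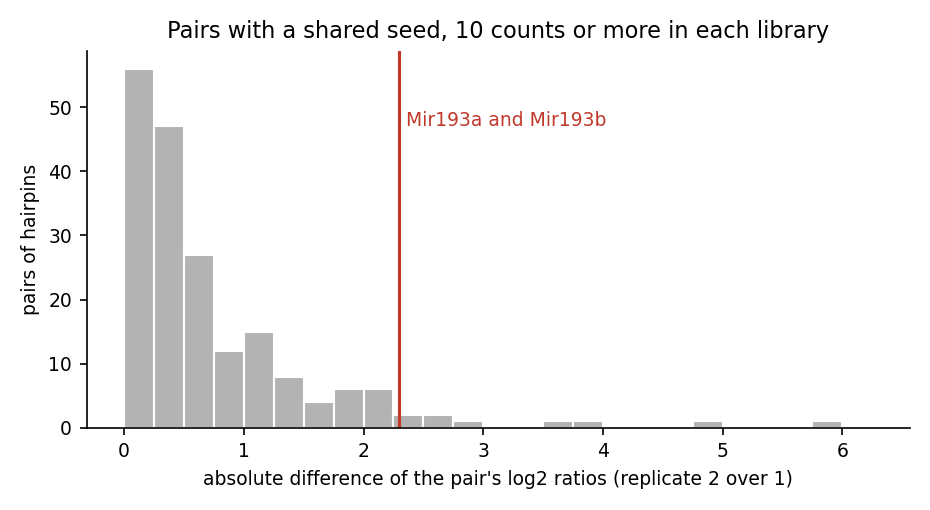
Histogram of the absolute difference of the log2 ratios (replicate 2 over replicate 1) within 190 pairs of hairpins that share a seed, in bins of 0.25, with the number of pairs on the y axis. The red line marks Mir193a and Mir193b at 2.30, with 8 pairs beyond it.

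Within each cluster the miR-193 hairpin held nearly all counts. On chromosome 11, Mir193a had 19 counts for the 1 count of Mir365-2 in replicate 1 (ratio 19.0, exact interval 3.02 to 789) and 141 for 8 in replicate 2 (ratio 17.6, interval 8.70 to 41.6). The change of that ratio between the libraries was 0.928-fold, with an interval of 0.0199 to 7.61, so the 9 counts of Mir365-2 cannot show whether it differed between the libraries as Mir193a did. On chromosome 16, Mir193b had 92 counts against 0 of Mir365-1 in replicate 1, which is at least 30.7-fold higher when the 92 counts, taken without their own error, are set against the limit of 3 counts. The exact interval puts the share of Mir193b in that library's cluster counts at 96.1% or more. In replicate 2 it had 136 counts against 5 (ratio 27.2, interval 11.4 to 85.1). Summed over both hairpins, the chromosome 11 cluster stood at 8.87 CPM (5.42 to 13.7) in replicate 1 and 33.0 CPM (27.9 to 38.7) in replicate 2. The chromosome 16 cluster stood at 40.8 CPM and 31.2 CPM in the same libraries, and its interval reached from 26.3 to 36.8 in replicate 2. The cluster sums were therefore far apart in replicate 1 and level with each other in replicate 2. Nearly all of these sums are miR-193 counts, and reads of the shared miR-365-3p arm can be missing from them.

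Unequal neighbours are common in these files. Among 117 pairs of neighbouring hairpins on 1 strand, at most 10000 bases apart and both tested, the median absolute log2 ratio of their mean levels was 3.15. Mir193a and Mir365-2, which lie further apart than that window, differed by 4.16 log2 units in mean level, and 41 of the 117 pairs differed by more. Mir193b and Mir365-1 lie within the window, 4238 bases apart, but are not among the pairs because Mir365-1 was not tested. Their mean levels, 35.4 and 0.553 CPM, were further apart than those of Mir193a and Mir365-2, 19.8 and 1.11 CPM. The part that multimapping has in the low miR-365 counts was not tested, but genes built like them can be listed. In the RefSeq table, 57 genes have 1 arm in common with another gene and 1 arm of their own, of which 39 (68.4%) were at 1 CPM or more in each library. Among those 57, Mir365-2 and Mir365-1 ranked 41 and 45 by mean level, under a median of 24.7 CPM. Of 926 genes that share no arm, 354 (38.2%) reached 1 CPM in both libraries, and of 35 genes that share every listed arm, 6 (17.1%) did. The classes hold different genes and do not say which arm was read, so their shares do not test the effect of a shared arm.

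The counts of a few other genes were nearest to those of each member, by distance in log2(CPM + 1) over both libraries. Nearest to Mir193a was Mir1930, at 10.6 and 26.3 CPM, followed by Mir9-1, a copy of the neural progenitor miRNA miR-9, at 6.21 and 19.9 CPM, and Mir5129, at 9.75 and 18.4 CPM. Mir193b stood nearest to Mir1193 (38.1 and 30.1 CPM), Mir582 (40.3 and 27.4 CPM) and Mir6944 (46.1 and 28.1 CPM). For Mir365-2, Mir6927 had the same counts, 1 and 8, while Mir6991 and Mir8101 had 1 and 9. With 2 libraries such likeness rests on 2 values a gene. By mean level, Mir193b lay between Mir135b (36.9 ± 21.2 CPM) and Mir8112 (34.3 ± 0.888 CPM), and Mir193a between Mir6982 (20.3 ± 8.33 CPM) and Mir181a-2 (18.9 ± 14.0 CPM), all within 1 SD of the member beside them. Mir365-2 lay between Mir7213 and Mir6927, and Mir365-1 between Mir6929 and Mir6984, all at 1.11 CPM or less.

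Beside other glia-linked miRNAs the counted levels of the clusters were low. All 17 genes of that list were tested, and 13 of them had a higher mean level than either miR-193 gene. Some of them, such as Mir26a-1, Mir29b-1, Mir125b-1 and Mir219a-1, share an arm with another gene, so reads can be missing from their counts. It was led by Mir29a (23782 ± 10218 CPM), Mir125a (12923 ± 4211 CPM), Mir338 of oligodendrocytes (3442 ± 845 CPM) and Mir29c (3116 ± 1364 CPM). In the exact binomial test with the 2-fold minimum, 1 of the 17 was called higher in replicate 2, namely Mir9-1 with a log2 ratio of 1.64, and 3 were called lower, namely Mir26a-1 (-5.56), Mir31 (-1.31) and Mir3065 (-3.32). Over all genes tested the shares were 3.84% higher and 13.7% lower, so the calls in the list do not set it apart. The list's median log2 ratio was -0.13, beside -0.19 over all genes tested.

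The list of miRNAs of brown fat, from which the chromosome 16 cluster is known, and of muscle was uneven in this tissue. Mir378a stood at 3221 ± 517 CPM, Mir455 at 1114 ± 570 CPM, Mir203 at 126 ± 51.2 CPM and Mir182 at 75.4 ± 34.4 CPM. The muscle gene Mir206 had 34 and 119 counts, a log2 ratio of 0.79 with an adjusted p of 0.00751 in the exact binomial test, which is under the 2-fold minimum, and Mir499 stood at 6.75 ± 1.11 CPM. Mir1a-1, Mir1a-2, Mir133a-1, Mir133a-2 and Mir133b had no count, and reads of the Mir1a and Mir133a copies can be set apart as multimapping. Mir208a had 2 and 4 counts and Mir208b had 3 and 0, with means under 1 CPM. Of 13 listed genes 6 were tested, of which 0 were called higher and 1, Mir455, lower (log2 ratio -1.09), beside 3.84% and 13.7% of all genes tested.

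Some markers of blood and liver were, like Mir193a, higher in replicate 2, and others were not. The liver gene Mir122 had 14.6 CPM in replicate 1 against 43.1 CPM in the other library, and the erythroid gene Mir144 had 17.3 against 48.9 CPM, both called higher in replicate 2 by the exact binomial test. The defining erythroid gene Mir451a stood at 105 and 71.0 CPM and Mir486 at 15.9 ± 0.0238 CPM, neither called higher. No gene of the microglia and leukocyte list was called: Mir150 stood at 823 and 752 CPM, Mir142 at 157 and 116 CPM, and Mir223 at 12.9 and 15.3 CPM. The libraries also differed in unmapped reads, 29.0% in replicate 1 and 11.2% in replicate 2. The part of these differences in the Mir193a result was not tested.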

How the data were processed

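Small RNA libraries of 2 hippocampal samples, 1 group, were analysed. The authors deposited raw counts per miRNA gene for each library, in 3 columns (without strand, sense, antisense), with assembly mm10 and annotation GENCODE M21 per the file headers. For the aligner and the counting tool, versions and settings are not stated in these sources. Reads mapping to several places form a separate deposited total. All 2202 gene IDs were named from GENCODE M21. The 4 rows of totals (unmapped, multimapping, no feature, ambiguous) stayed out of library sums: counts in genes were 30.2% and 37.2% of all reads in replicates 1 and 2. CAST alleles that differ from the B6 reference could lose reads.

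Sense counts were scaled to CPM. The libraries were compared gene by gene, for means of at least 1 CPM, with the exact conditional binomial test (two-sided, scipy 1.17.1) and Benjamini-Hochberg adjustment over all genes tested. A call needed an adjusted p below 0.05 and a change of at least 2-fold. With 1 library per replicate and 1 group, edgeR's quasi-likelihood test has no residual degrees of freedom. edgeR 4.0.16 (TMM, and exactTest with an intercept-only common dispersion) and DESeq2 1.42.0 (size factors) served as alternatives, besides other columns, filters, pseudocounts and single libraries. The binomial test was checked on simulated data with counting error alone, and it does not model the spread between libraries. Named genes were the 4 members, the 3 genes nearest to each tested member, the next genes in mean level, neighbouring genes, seed mates and the leading members of 2 lists; other list members and the tissue markers were named after their values were seen. Members and lists were chosen with earlier results of these data known.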

Additional observations from a re-analysis of the deposited data

How the results depend on the processing

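The miR-365 genes hold 14 counts in all, and with 2 libraries each SD rests on 2 values. The share of counts in the 4 genes, 0.00569%, became 0.00194% with all reads as the denominator, which enlarges the denominator by construction, and ranged from 0.00496% to 0.00641% over single libraries. The number of genes called between the libraries, 87, became 53 with a mean of 10 CPM or more (fewer genes tested), 265 with no fold threshold and 3 with edgeR's exactTest, in which Mir193a was not called. The mean log2 ratio of Mir193a over Mir193b was -1.10, and it was -2.25 without replicate 2. Without replicate 1 it was 0.052, where the ratio of the counts was 1.04 with an exact interval of 0.813 to 1.32, which spans both directions. The order of the miR-193 paralogs therefore rests on replicate 1. Over single libraries the log2 ratio of Mir193a over Mir365-2 ranged from 3.70 to 4.06 (pseudocount of 0.5 counts), and replicate 1 gives no such ratio over Mir365-1, which had 0 counts there. Levels in single libraries ranged from 8.42 to 31.2 CPM for Mir193a, from 30.1 to 40.8 CPM for Mir193b, from 0.443 to 1.77 CPM for Mir365-2 and from 0 to 1.11 CPM for Mir365-1. With all reads as the denominator all 4 means were lower, at 7.07, 11.7, 0.396 and 0.206 CPM in that order. The log2 ratio of Mir365-2 between the libraries went from 1.50 to 0.11 with a pseudocount of 5 counts, against 1.86 to 1.60 for Mir193a. No paired analysis was possible because the samples form 1 group.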
